A study of Homo sapiens with 15 samples.

Results

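Mutant FOXL2 was compared with empty vector in COV434 cells, an established line from a tumour classed as a juvenile granulosa cell tumour, which does not carry the FOXL2 mutation. The comparison takes 6 of the 15 arrays of the study, namely the 3 titled as mutant (RR1017, RR1019 and RR1024) and the 3 titled as control (RR1016, RR1021 and RR1023). The mutant cells had received the plasmid pFOXL2m, which carries the coding sequence of FOXL2 with the recurring granulosa cell tumour mutation, and the control cells the same amount of vector without an insert. All were seeded at 300000 cells per well at passage 9, transfected with 1 µg of plasmid, freed of the lipid complex after 7 h and harvested at 24 h. A further 3 COV434 arrays hold cells given the wildtype coding sequence (pFOXL2wt), and the remaining 6 arrays of the study hold KGN cells treated with siRNA. The 3 samples of a group were separate transfections of 1 cell line on the same occasion, so the p-values measure the spread between these transfections only.

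FOXL2 is a forkhead transcription factor that ovarian granulosa cells need to form and to keep their identity. It works with SMAD proteins, which carry signals of the TGF-β family from the cell surface to the genes. Activins and TGF-β act through SMAD2 and SMAD3, bone morphogenetic proteins (BMPs) act through SMAD1, SMAD5 and SMAD9, and target genes such as ID1 and ID3 report BMP signalling in many cell types. Each gene is given below as the log2 signal of a probe set on an Affymetrix U133 Plus 2 array, so that a difference of 1 is a doubling of signal.

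One empty vector array stood apart. The array carries control probe sets for both ends of the ACTB and GAPDH transcripts, and an excess of 3′ over 5′ signal is a sign of degraded RNA. The 3′ signal exceeded the 5′ signal by 7.81 for ACTB and 4.67 for GAPDH on RR1016, against 1.51 to 2.58 and 0.10 to 1.08 on the other 14 arrays of the study (log2). Across the 54613 probe sets RR1016 correlated with its fellow controls at r = 0.977 to 0.981, whereas RR1021 and RR1023 correlated with the mutant arrays at 0.990 to 0.994. Results are therefore given from a fit of the 9 COV434 arrays and from a fit without RR1016. The controls kept in the latter, RR1021 and RR1023, correlated with each other at 0.991, no better than with the mutant arrays. The mutant arrays correlated with one another at 0.997 and the wildtype arrays at 0.997 to 0.998. With all 9 arrays no probe set passed an adjusted p of 0.05 (0% of those tested, smallest adjusted p = 0.0895 by limma), and 7095 had an unadjusted p under 0.05. At an unadjusted p under 0.01, 730 probe sets (1.34%) were higher and 1336 (2.45%) lower. Without RR1016, 822 probe sets (1.51%) were higher and 811 (1.48%) were lower with mutant FOXL2. These counts fell to 0 in both directions when any of the 3 mutant arrays was left out, or when the wildtype arrays did not help to estimate the spread, or when arrays were weighted for quality. Below, a gene is said to have risen or fallen when it passed in the fit without RR1016, and the difference with all 3 controls is given beside it or in the same paragraph. Lists of genes are counted by the brightest probe set of each gene, and their counts are to be read against all 19775 genes counted in the same way, of which 2.07% rose and 1.53% fell.

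RR1016 often read a called gene at the mutant level. Of the 822 probe sets called higher, 297 (0.544% of all tested) had their 3 mutant arrays above all 3 empty vector arrays, and on 332 RR1016 exceeded every mutant array. Of the 811 called lower, 392 (0.718% of all tested) had their mutant arrays below all 3 controls, and on 276 RR1016 was below every mutant array. RNA quality moved with these readings, and its part in them was not tested. The probe sets were called by their distance from RR1021 and RR1023, so RR1016 can fall on the mutant side through this selection alone. The position of RR1016 was not counted over all probe sets. The genes described first are those whose mutant arrays did not overlap with any control, RR1016 included. Lack of overlap was a condition for choosing them, so it is no separate support for these genes. Of all 19775 genes, taken by their brightest probe set, 133 (0.673%) rose and 145 (0.733%) fell in this way. Over all probe sets there were 128 such genes that rose and 211 that fell, with 1 gene symbol and a mean above the background level of 5.12 in the higher group.

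**Figure D1:**
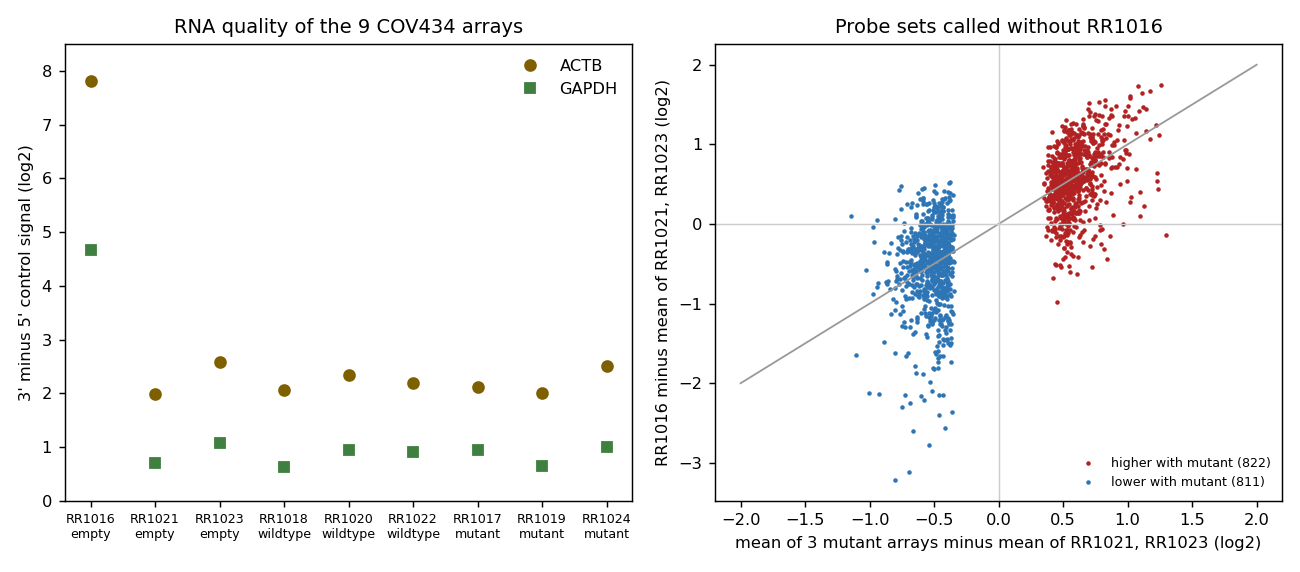
Left, 3′ minus 5′ control signal (log2) of ACTB (circles) and GAPDH (squares) on each of the 9 COV434 arrays, with RR1016 at 7.81 and 4.67. Right, for each of the 1633 probe sets called without RR1016, the mutant mean (x axis) and RR1016 (y axis) as log2 differences from the mean of RR1021 and RR1023, with a line of equality. RR1016 lies on the mutant side of the other controls for 748 of the 822 higher and 706 of the 811 lower probe sets. Selection by distance from RR1021 and RR1023 favours this side, and the share over all probe sets was not counted.

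The 15 largest rises with mutant FOXL2 are given first, with SPTSSA at their head. SPTSSA encodes a small subunit of serine palmitoyltransferase, the enzyme that starts sphingolipid synthesis. It read 10.12, 9.08 and 8.92 on the empty vector arrays RR1016, RR1021 and RR1023, and 10.35, 10.22 and 10.16 on the mutant arrays RR1017, RR1019 and RR1024. All 3 mutant arrays were higher than every control, although RR1016 came close. The difference was 1.24 without RR1016 (2.37-fold, standard error 0.12, adjusted p = 0.0207) and 0.87 with it (standard error 0.26). Its second probe set rose by 1.03 (standard error 0.10; 0.92 with all controls). KDSR encodes the reductase of the next step of that pathway, and 2 of its 4 probe sets rose, by 0.96 and 0.73 (0.69 and 0.79 with all controls). The brighter of the pair gave 7.76, 7.81 and 8.09 with empty vector and 8.66, 8.62 and 8.76 with mutant FOXL2, so here RR1016 lay with the other controls. CDS1, which makes an activated form of phosphatidic acid for phospholipid synthesis, rose by 0.94 (0.66 with all controls), and ABAT, the enzyme that breaks down the transmitter GABA, by 0.99 (0.76).

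CCNG2 encodes cyclin G2, an unusual cyclin that is high in cells that stop dividing. The control arrays gave 9.64, 8.77 and 9.10, and the mutant arrays 9.80, 9.74 and 9.88. The groups did not overlap, but RR1016 was nearer to the mutant arrays than to the other controls. The difference was 0.87 (standard error 0.11, adjusted p = 0.0252), and 0.64 with all 3 controls. CCNG2 has 5 probe sets, and the other 4 differed by 0.16 to 0.51 without passing. YPEL2, of a family of small proteins found at the spindle, was among the largest rises, at 1 of its 3 probe sets. This probe set read 6.19, 5.77 and 5.52 in controls and 6.91, 6.69 and 7.01 with mutant FOXL2, a difference of 1.23 (1.05 with all controls). The others, below background, differed by 0.17 and 0.02 without passing. CCPG1, an endoplasmic reticulum protein named for the cell cycle, rose by 0.82 (0.64). KLHL24, a component of a ubiquitin ligase, rose by 1.07 (0.84) at 1 of its 5 probe sets. Its brightest probe set differed by −0.12 (−0.28 with all controls).

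PIERCE2, which encodes a protein inside the microtubules of cilia, gave 6.29, 5.82 and 5.50 with empty vector and 6.93, 6.77 and 6.98 with mutant FOXL2. The difference was 1.23 (standard error 0.14, adjusted p = 0.0252; 1.02 with all controls). DNAH6, a motor subunit of cilia, rose by 0.89 (0.85) at the probe set chosen from its 8. The remaining genes of the 15 largest rises were TINCR (1.10, and 0.96 with all controls), TSPAN18 (1.02 and 0.92), SMTNL2 (0.99 and 0.81), C11orf54 (0.92 and 0.68) and THEMIS2 (0.84 and 0.99). With all 3 controls the 15 differences ranged from 0.64 to 1.05, and their adjusted p from 0.125 to 0.302. The probe sets of SMTNL2, CDS1, THEMIS2, CLIP1, PHC3 and RBMS1 among the 30 largest changes had a mean over the 9 arrays under the background level, although their higher group was above it.

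Among the 15 largest falls with mutant FOXL2 were NFKBIA, BAMBI, INHBA and PTPRC. NFKBIA encodes IκBα, which holds the transcription factor NF-κB in the cytoplasm and is itself switched on by it. The empty vector arrays read 8.45, 8.97 and 9.36 and the mutant arrays 8.17, 8.44 and 8.31. RR1016 exceeded the highest mutant array only narrowly. The difference was −0.86 (standard error 0.14, adjusted p = 0.0299), and −0.62 (standard error 0.20) with all controls. DUSP6, a phosphatase that removes phosphate from the kinase ERK, fell by 0.72 (−0.64 with all controls) at 1 of its 3 probe sets, whereas the others, which were brighter, differed by −0.02 and −0.10. MAP2K6, a kinase upstream of p38, fell by 0.77 (−0.60 with all controls).

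BARD1, the partner of BRCA1 in DNA repair, gave 7.70, 7.92 and 8.24 in controls and 7.29, 7.25 and 7.34 with mutant FOXL2. The difference was −0.78 (standard error 0.13; −0.66 with all controls). The tight junction protein gene CGN fell by 0.86, the cytoskeletal genes CLIP1 and NAV1 by 1.03 and 0.78, and RBMS1, which encodes an RNA-binding protein, by 0.74. With all controls these differences were −0.70, −0.84, −0.72 and −0.71. Each is from the probe set with the largest qualifying difference, out of 2 for CGN, 6 for CLIP1, 8 for NAV1 and 6 for RBMS1. YTHDC1, a reader of methylated adenosine in RNA, fell by 0.76 (−0.65 with all controls) at 1 of its 5 probe sets. The polycomb gene PHC3 fell by 0.81 (−0.83) at 1 of its 5 probe sets, whose mean was below background, while its brightest probe set differed by 0.07. SPMIP2, whose product lies in sperm microtubules, fell by 0.77 (−0.92), and GART, an enzyme of purine synthesis, by 0.74 (−0.63). GART is uncertain, since 1 of its 9 probe sets fell while another rose by 0.74 in the same fit.

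The largest fall was that of PTPRC, which encodes the leukocyte phosphatase CD45, at 1 of its 5 probe sets. This probe set read 7.12, 6.69 and 7.35 with empty vector and 6.03, 5.84 and 5.76 with mutant FOXL2, a difference of −1.14 (2.21-fold lower, standard error 0.22, adjusted p = 0.0374; −1.18 with all controls). Its brightest probe set differed by −0.21 (adjusted p = 0.211). Of 11 leukocyte markers measured, 2 were above background and none passed in either direction, with CD3E, CD14, MS4A1 and TYROBP at means over the COV434 arrays of 4.51, 3.63, 3.15 and 3.29. Their summed linear signal was 318 to 444 on the empty vector arrays and 310 to 328 on the mutant arrays.

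**Figure D2:**
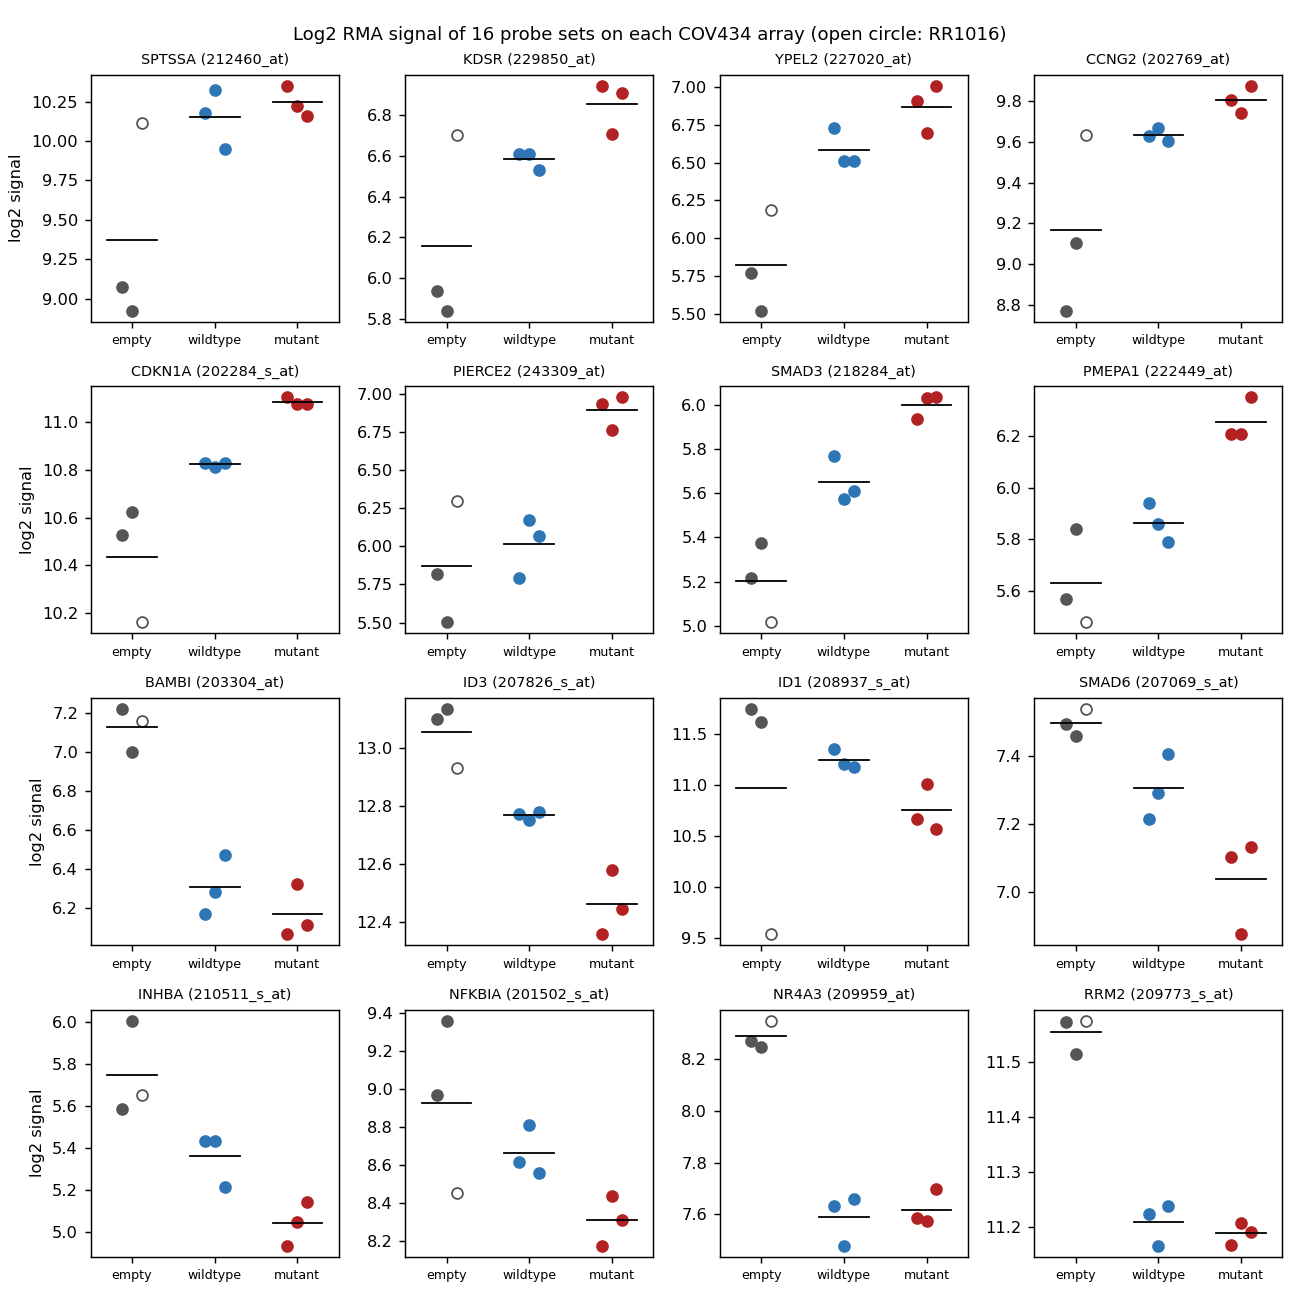
Log2 RMA signal (y axis) of 16 probe sets in COV434 cells with empty vector, wildtype FOXL2 and mutant FOXL2, 1 point per array, with lines at the mean of all 3 arrays of a group. The open circle is RR1016, which lies close to the mutant arrays for SPTSSA, CCNG2, NFKBIA and the dimmer KDSR probe set plotted here, and with its group for BAMBI, SMAD6, NR4A3 and RRM2.

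Of 17 measured BMP target genes, 3 fell (BAMBI, ID1 and ID3) and 1 rose (MSX2), beside 1.53% of all genes that fell and 2.07% that rose. The list had a median difference of −0.11 without RR1016 and −0.14 with it, beside −0.01 over all genes in both fits. BAMBI encodes a receptor without kinase activity that dampens TGF-β and BMP signals. It read 7.16, 7.22 and 7.00 on the control arrays and 6.07, 6.32 and 6.11 on the mutant arrays. The 3 controls lay together here, RR1016 among them, and all mutant arrays were lower. The difference was −0.94 (1.92-fold lower, standard error 0.12, adjusted p = 0.0261), and −0.96 (standard error 0.12, adjusted p = 0.0900) with all 9 arrays.

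ID1 and ID3 encode inhibitors of DNA binding, short-lived partners that block basic helix-loop-helix factors. ID3 gave 12.93, 13.10 and 13.14 with empty vector and 12.36, 12.58 and 12.44 with mutant FOXL2, without overlap. It fell by 0.66 (standard error 0.09, adjusted p = 0.0263), and the difference with all controls was −0.59. ID1 gave 9.54, 11.74 and 11.61 with empty vector and 10.67, 11.01 and 10.57 with mutant FOXL2, so that RR1016 was below all mutant arrays and the other controls were above them. Its difference was −0.93 (standard error 0.13, adjusted p = 0.0271) without RR1016 and −0.22 (standard error 0.47) with it. ID2 and ID4, of the same family, differed by −0.11 (standard error 0.11) and 0.05 (standard error 0.11).

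SMAD6, an inhibitory SMAD that BMPs induce, read 7.54, 7.49 and 7.46 in controls and 7.10, 6.88 and 7.13 with mutant FOXL2. The groups did not overlap, and the difference of −0.44 (standard error 0.10) had an adjusted p of 0.0555. A weaker SMAD6 probe set, near background, passed with a difference of −0.49 (adjusted p = 0.0393). SMAD7, the other inhibitory SMAD, differed by −0.06 (standard error 0.08), and SMAD9 by −0.35 (standard error 0.14), with its mutant arrays below all controls. MSX2, a homeobox gene of the list, rose by 0.69 (0.55 with all controls) at 1 of 3 probe sets, whereas the homeobox gene MSX1 differed by −0.03.

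The bases before the start sites of the BMP-responsive genes are shown for BAMBI, ID1, ID3 and SMAD6, the members of the list with a probe set that fell, of which ID1 overlapped with RR1016 and SMAD6 passed only at its weaker probe set. Each is the stretch of 250 bases upstream of the RefSeq start (GRCh38.p14), written along the gene's strand. It lies at chr10:28677271-28677520 (plus strand) for BAMBI, chr20:31605039-31605288 (plus) for ID1, chr1:23559502-23559751 (minus) for ID3 and chr15:66701986-66702235 (plus) for SMAD6. Capitals mark 3 motifs searched on both strands, GGCGCC, a GC-rich sequence that BMP SMADs bind, GTCTAGAC, the palindrome that SMAD3 and SMAD4 bind, and TAAACA, part of the sequence that forkhead factors bind.
BAMBI: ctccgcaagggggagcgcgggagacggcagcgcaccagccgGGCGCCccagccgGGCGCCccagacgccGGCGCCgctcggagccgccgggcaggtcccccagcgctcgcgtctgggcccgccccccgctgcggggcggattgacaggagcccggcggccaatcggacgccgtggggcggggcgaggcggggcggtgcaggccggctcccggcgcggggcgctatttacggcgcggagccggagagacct
ID1: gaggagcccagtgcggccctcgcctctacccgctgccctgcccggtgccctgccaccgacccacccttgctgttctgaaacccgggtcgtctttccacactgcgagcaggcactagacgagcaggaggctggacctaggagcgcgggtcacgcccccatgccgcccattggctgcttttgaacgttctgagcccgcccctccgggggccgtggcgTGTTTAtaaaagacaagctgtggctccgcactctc
ID3: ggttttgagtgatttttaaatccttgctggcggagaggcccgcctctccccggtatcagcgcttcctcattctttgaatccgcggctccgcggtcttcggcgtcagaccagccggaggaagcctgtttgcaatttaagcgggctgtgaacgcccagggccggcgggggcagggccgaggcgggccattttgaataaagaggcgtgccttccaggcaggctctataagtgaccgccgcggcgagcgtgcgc
SMAD6: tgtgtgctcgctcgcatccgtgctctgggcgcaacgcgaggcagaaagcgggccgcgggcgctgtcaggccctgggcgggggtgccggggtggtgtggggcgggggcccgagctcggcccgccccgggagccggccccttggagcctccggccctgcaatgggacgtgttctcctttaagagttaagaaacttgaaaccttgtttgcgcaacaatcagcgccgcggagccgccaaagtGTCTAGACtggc
BAMBI held GGCGCC 3 times, ID1 held TAAACA once (as its complement TGTTTA), SMAD6 held GTCTAGAC once, and ID3 held none of the motifs. Of 35116 promoter windows of the same length, 16.4% held GGCGCC at least once, 0.527% held it 3 times or more, 0.182% held GTCTAGAC and 11% held TAAACA. None of the 4 windows printed held more than 1 of the 3 motifs. A match is a description of the letters and not a binding site.

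Elsewhere in the TGF-β family, few genes passed. INHBA encodes the βA subunit of activin A and inhibin A. It read 5.65, 5.59 and 6.01 with empty vector and 4.93, 5.05 and 5.14 with mutant FOXL2, without overlap. The difference was −0.75 (1.69-fold lower, standard error 0.13, adjusted p = 0.0338; −0.71 with all controls), and a second probe set fell by 0.71 (−0.59). The mutant means of these probe sets, 5.04 and 5.11, lay just under the background level of 5.12. Their means over all empty vector arrays were 5.75 and 5.70. The remaining probe set was near the bottom of the scale and differed by 0.0025. No other gene of the 8 in the inhibin, activin and follistatin list passed. INHBB, the βB subunit, differed by 0.40 (standard error 0.18), INHA, the α subunit of inhibin, by 0.25 (standard error 0.11), and the activin antagonist FST by 0.22 (standard error 0.12).

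Among 31 ligands and receptors of the family none passed. The nearest were LEFTY1, an inhibitor of nodal (0.50, standard error 0.11, adjusted p = 0.0527, below background), and the receptor TGFBR1 (0.39, standard error 0.09, adjusted p = 0.0506, and 0.17 with all controls). Of 20 SMAD proteins and modulators, SMAD1 and THBS1 rose and none fell. SMAD1, a carrier of BMP signals, read 9.05, 8.21 and 8.15 in controls and 8.77, 8.62 and 8.71 with mutant FOXL2. RR1016 was above every mutant array, and the difference of 0.52 (standard error 0.08) was 0.23 (standard error 0.20) with all controls. THBS1, an activator of latent TGF-β, rose by 0.66 (0.68 with all controls) at its brightest probe set and fell by 0.58 (−0.67) at another, so its direction is uncertain.

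SMAD3 carries activin and TGF-β signals. Its brightest probe set differed by 0.14 (standard error 0.11), whereas another of its 4 probe sets read 5.02, 5.22 and 5.37 in controls and 5.94, 6.03 and 6.03 with mutant FOXL2. That probe set rose by 0.71 (standard error 0.10, adjusted p = 0.0263; 0.80 with all controls), without overlap. PMEPA1, a TGF-β target that feeds back on SMAD2 and SMAD3, was the only one of 15 TGF-β response genes to pass. It read 5.48, 5.57 and 5.84 with empty vector and 6.21, 6.21 and 6.35 with mutant FOXL2, and rose by 0.55 (standard error 0.10, adjusted p = 0.0372; 0.63 with all controls), while its other 2 probe sets differed by 0.07 and −0.01. The SMAD ubiquitin ligase gene SMURF2 (0.40, adjusted p = 0.0660) and the repressor gene TGIF1 (0.32) had mutant arrays above all controls without passing.

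**Figure D3:**
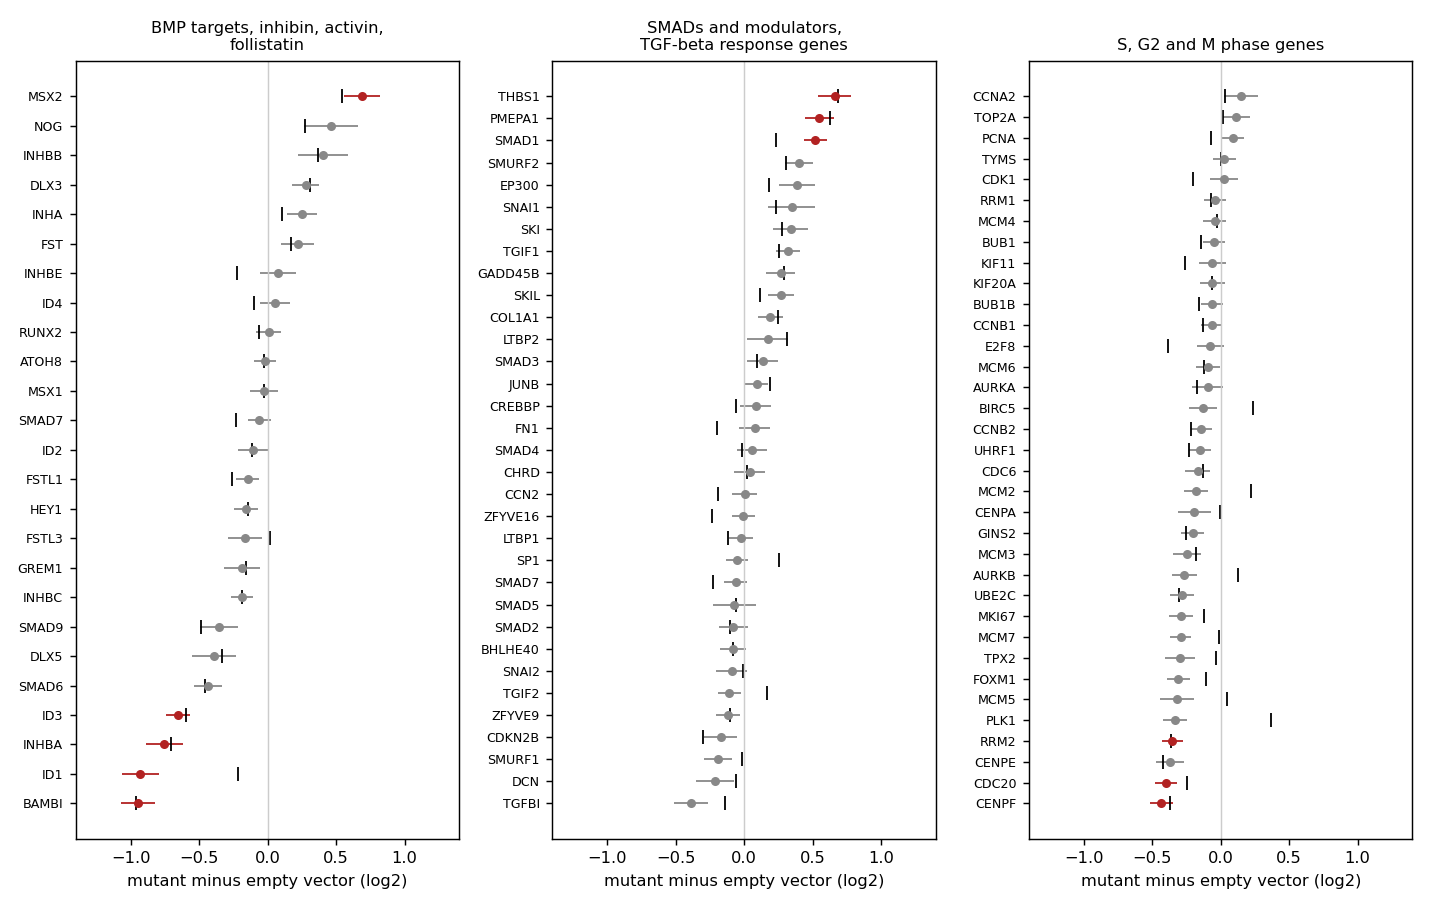
Log2 difference of mutant FOXL2 minus empty vector for the brightest probe set of each gene, without RR1016 (points with standard errors, red where adjusted p was under 0.05) and with all 9 arrays (vertical ticks). BAMBI and ID3 kept nearly the same value in both, while ID1 moved from −0.93 to −0.22 and PLK1, a mitotic kinase gene, from −0.33 to 0.37.

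Of 22 G1 regulators 3 rose and 1 fell, and of 35 genes of S, G2 and M phase none rose and 3 fell. CDKN1A encodes p21, the inhibitor of cyclin-dependent kinases that p53 switches on. It gave 10.16, 10.53 and 10.62 with empty vector and 11.11, 11.08 and 11.08 with mutant FOXL2. The mutant arrays lay close together and above every control. CDKN1A rose by 0.51 (1.43-fold, standard error 0.08, adjusted p = 0.0279; 0.65 with all controls). Of 23 measured p53 targets it was the only one to pass, and the list had a median of 0.09 (0.15 with all controls). Among the G1 regulators, whose median was −0.17 (−0.04 with all controls), CDKN1B, which encodes p27, and RB1 rose by 0.60 and 0.42, and E2F2 fell by 0.55. On all 3 of these RR1016 was past the mutant arrays, and their differences were 0.31, 0.17 and −0.30 with it. CDKN1C, which encodes p57, read 5.53, 5.62 and 5.23 in controls and 5.84, 5.89 and 6.20 with mutant FOXL2, a difference of 0.55 (standard error 0.16, adjusted p = 0.0869).

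All 35 genes of S, G2 and M phase were above background. Of these, 3 fell and none rose, namely the centromere protein gene CENPF (−0.43, and −0.37 with all controls), the anaphase activator gene CDC20 (−0.40 and −0.24) and RRM2 (−0.35 and −0.36), a subunit of ribonucleotide reductase. CDC20 read 10.29 on RR1016, below every mutant array. RRM2 read 11.57, 11.57 and 11.51 with empty vector and 11.17, 11.21 and 11.19 with mutant FOXL2, without overlap and with RR1016 among the other controls. The list had a median of −0.15 without RR1016 and −0.12 with all controls. In 10 of the 35 genes all mutant arrays were below all controls, in none were they above, and MKI67, the gene of the proliferation marker Ki-67, differed by −0.29 (standard error 0.09) without passing. Over all genes 2133 of 19775 were below and 1127 above in this sense.

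Among 33 genes of apoptosis, BIK, CASP1 and XIAP rose and none fell, and the list had a median of −0.07 (0.08 with all controls). BIK encodes a BH3-only protein that promotes cell death. It gave 5.62, 6.02 and 5.72 in controls and 6.59, 6.85 and 6.56 with mutant FOXL2, and rose by 0.79 (standard error 0.14, adjusted p = 0.0305; 0.88 with all controls). XIAP, an inhibitor of caspases, rose by 0.77, but RR1016 was above all mutant arrays and the difference with it was 0.39 (standard error 0.27). CASP1, the inflammatory caspase, rose by 0.39 (0.33) from a level below background. Of 20 NF-κB targets and cytokines, NFKBIA, NFKB1 (−0.54) and IL1A (−0.65, below background) fell and none rose. NFKB1 read 7.45 on RR1016, below every mutant array, and its difference was −0.30 (standard error 0.19) with all controls, while that of IL1A was −0.52. For this list the median was −0.23 (−0.11 with all controls). In the interferon response, RIGI, a sensor of viral RNA, was the only one of 36 genes to pass, with 6.59, 5.54 and 5.89 in controls and 6.96, 6.58 and 6.64 with mutant FOXL2. The difference was 1.01 (standard error 0.15, adjusted p = 0.0276), and 0.72 (standard error 0.23) with RR1016, which overlapped the mutant arrays.

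In stress pathways single genes rose. HERPUD1, which helps to degrade misfolded proteins, gave 9.54, 9.17 and 8.83 in controls and 9.58, 9.70 and 9.68 with mutant FOXL2 and rose by 0.66 (0.48 with all controls), the only one of 26 genes of the unfolded protein and amino acid stress response to pass. Of 16 heat shock chaperones, HSPA6 (0.65, below background) and CHORDC1 (0.50) rose. RR1016 lay among the mutant arrays for HSPA6 and above them for CHORDC1, and the differences with it were 0.43 and 0.19. NR4A3, an orphan nuclear receptor gene, was the only one of 30 immediate early genes to pass. It read 8.35, 8.27 and 8.25 with empty vector and 7.58, 7.57 and 7.70 with mutant FOXL2, a clean separation, and fell by 0.64 (1.56-fold, standard error 0.09, adjusted p = 0.0263; −0.67 with all controls). JUN, in the same list, differed by 0.35 (standard error 0.08, adjusted p = 0.0544), with mutant arrays above all controls.

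Factors that set cell identity moved singly. SOX8, a relative of the testis factor SOX9, read 6.25, 6.59 and 6.39 in controls and 6.96, 7.12 and 7.05 with mutant FOXL2 and rose by 0.55 (standard error 0.10, adjusted p = 0.0322; 0.63 with all controls). It was 1 of 2 genes to rise among 10 Sertoli and testis factors, with the junction gene CLDN11 (0.45, and 0.31 with RR1016, which overlapped the mutant arrays), and the only one among 19 SOX factors. SOX9 itself was near background and differed by 0.04 (standard error 0.19). HOXC6 was the only one of 28 HOX genes to pass, with 8.00, 8.05 and 8.10 in controls and 8.62, 8.60 and 8.61 with mutant FOXL2, a rise of 0.53 (0.56 with all controls). Of 22 Notch genes, the ligand gene JAG2 (0.41) and the target gene HEYL (0.75, below background) rose and the target gene HEY2 fell by 0.55, all without overlap. With all controls these were 0.48, 0.72 and −0.47. Of 35 forkhead genes, FOXO3 (0.48) and FOXK1 (0.50) rose, both with RR1016 among the mutant values, and were 0.34 and 0.37 with it. Of 17 circadian and orphan receptor genes NR1D2 (0.53, and 0.61 with all controls) and CRY1 (0.49) rose. RR1016 lay among the mutant arrays for CRY1, and its difference was 0.31 with all controls.

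The remaining lists held few calls. Of 29 matrix genes COL6A1 (0.54), THBS1 and LUM (0.64) rose, of 12 genes of fatty acid synthesis ACACB (−0.60) and SREBF1 (−0.38) fell, and of 22 SWI/SNF subunits ACTL6A rose (0.85). The COL6A1 and ACACB differences were 0.62 and −0.61 with all controls. The LUM, SREBF1 and ACTL6A differences were 0.25, 0.04 and 0.41 with RR1016, and SREBF1 thereby changed direction. None passed among 18 cholesterol genes, 30 glycolysis and hypoxia genes, 8 metallothioneins, 22 Wnt genes, 20 matrix proteases and inhibitors, 15 polycomb subunits, 9 replication-dependent histones, 43 ribosomal proteins and 39 genes of oxidative phosphorylation.

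COV434 carried only part of a granulosa profile on these arrays. Of 18 granulosa markers measured, 9 were above background. WT1 (mean log2 signal 11.03), NR5A2 (10.43), BMPR1B (11.11) and KITLG (8.59) were well expressed, while FSHR (2.75), CYP19A1 (4.34), NR5A1 (4.31) and INHA (3.30) were not above it. INHBA was the only one of the 18 to pass, and the list had a median of 0.07 (−0.04 with all controls). Mutant arrays were below all controls for 5 of these genes and above them for 1. Over all 19775 genes they were below for 2133 and above for 1127. No epithelial marker of 16 and no endothelial marker of 9 passed. Of 11 theca and stromal markers LUM alone did, and their summed linear signal was 4621 to 5924 on empty vector arrays and 4744 to 4775 on mutant arrays. Of 21 steroid synthesis genes, HSD17B3, which makes testosterone, rose by 0.58 (0.56 with all controls) from a level below background.

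The FOXL2 probe set reads the part of the transcript that the plasmid lacks, so it cannot check the overexpression. It was below background throughout, at 2.68, 2.83 and 3.11 with empty vector and 2.62, 2.62 and 2.47 with mutant FOXL2. The study checked the overexpression by other means. It reports a large rise by RT-qPCR, to similar levels with both plasmids, and a FOXL2 band on Western blot that control cells lacked. Of 28 reported FOXL2 target genes, SIRT1, a deacetylase (0.45), and CDKN1B (0.60) rose and NR4A3 fell. The SIRT1 difference was 0.13 (standard error 0.22) with RR1016. STAR, which carries cholesterol into mitochondria, differed by −0.13 (standard error 0.10), and CYP19A1, the aromatase gene, by 0.21 (standard error 0.15), both below background. Of the 24 measured genes that the study names for mutant FOXL2, CDKN1A rose and ID1, ID3 and INHBA fell. The study drew genes such as SMAD3, CDKN2A, JUN and INHBA from mutant against wildtype FOXL2, whereas these counts are against empty vector. The list of 24 and the 22 measured genes that the study lists for overexpression, none of which passed, were in part picked by the study on these arrays. Their counts are therefore not independent evidence. Some of the 24, such as STAR, CYP19A1 and SOX9, came from earlier reports and were examined by the study in KGN. Others among the 24 did not pass, for example CDK6 (−0.38, standard error 0.12), GADD45B (0.27, standard error 0.11), SOX4 (0.27, standard error 0.12), DLX3 (0.28, standard error 0.10, below background) and CDKN2A (−0.18, standard error 0.08). Smaller differences were those of NODAL (0.10, standard error 0.09), BMPR1B (0.06, standard error 0.08) and ATF3 (−0.0016, standard error 0.13). Against wildtype FOXL2, BMPR1B differed by −0.22 (standard error 0.07) without passing. ATF3 has 3 probe sets, of which this is the brightest. Another, below background, rose by 0.71 (adjusted p = 0.0367 by limma, and 0.46 with all controls), with RR1016 among the mutant arrays. The last differed by 0.34 (0.41 with all controls) without passing, and its mutant arrays were above all controls.

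Wildtype FOXL2 was measured against the same empty vector arrays, so its differences share the controls and are set beside those of the mutant only gene by gene. For BAMBI the difference from empty vector was −0.94 with mutant and −0.80 with wildtype FOXL2, for SPTSSA 1.24 and 1.15, and for NR4A3 −0.64 and −0.67. For PIERCE2 it was 1.23 and 0.35, for ID1 −0.93 and −0.43, for ID3 −0.66 and −0.35, for CDKN1A 0.51 and 0.25, and for PMEPA1 0.55 and 0.16. The direct comparison of mutant with wildtype FOXL2 does not use the empty vector signals, apart from their spread. Without RR1016 no probe set passed it at an adjusted p of 0.05 (smallest adjusted p = 1 by limma). Of all 54613 probe sets, 1584 had an unadjusted p under 0.05, 209 of them under 0.01. Both shares were smaller than the thresholds themselves, so these counts do not exceed those of tests without any difference.

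PIERCE2 was higher with mutant than with wildtype FOXL2 by 0.88 (standard error 0.12), with 5.79, 6.17 and 6.07 on the wildtype arrays. CDKN1C was higher by 0.60 (standard error 0.14), BIK by 0.46 (standard error 0.12), PMEPA1 by 0.39 (standard error 0.09), JUN by 0.28 (standard error 0.07) and CDKN1A by 0.26 (standard error 0.07). ID1 was lower with mutant than with wildtype FOXL2 by 0.50 (standard error 0.12), ID2 by 0.34 (standard error 0.10) and ID3 by 0.31 (standard error 0.08). On all 3 wildtype arrays ID3 (12.77, 12.75 and 12.78) lay between the mutant and the empty vector arrays. SPTSSA and BAMBI differed between mutant and wildtype by 0.09 (standard error 0.11) and −0.14 (standard error 0.11). None of these mutant-to-wildtype differences passed after adjustment.

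**Figure D4:**
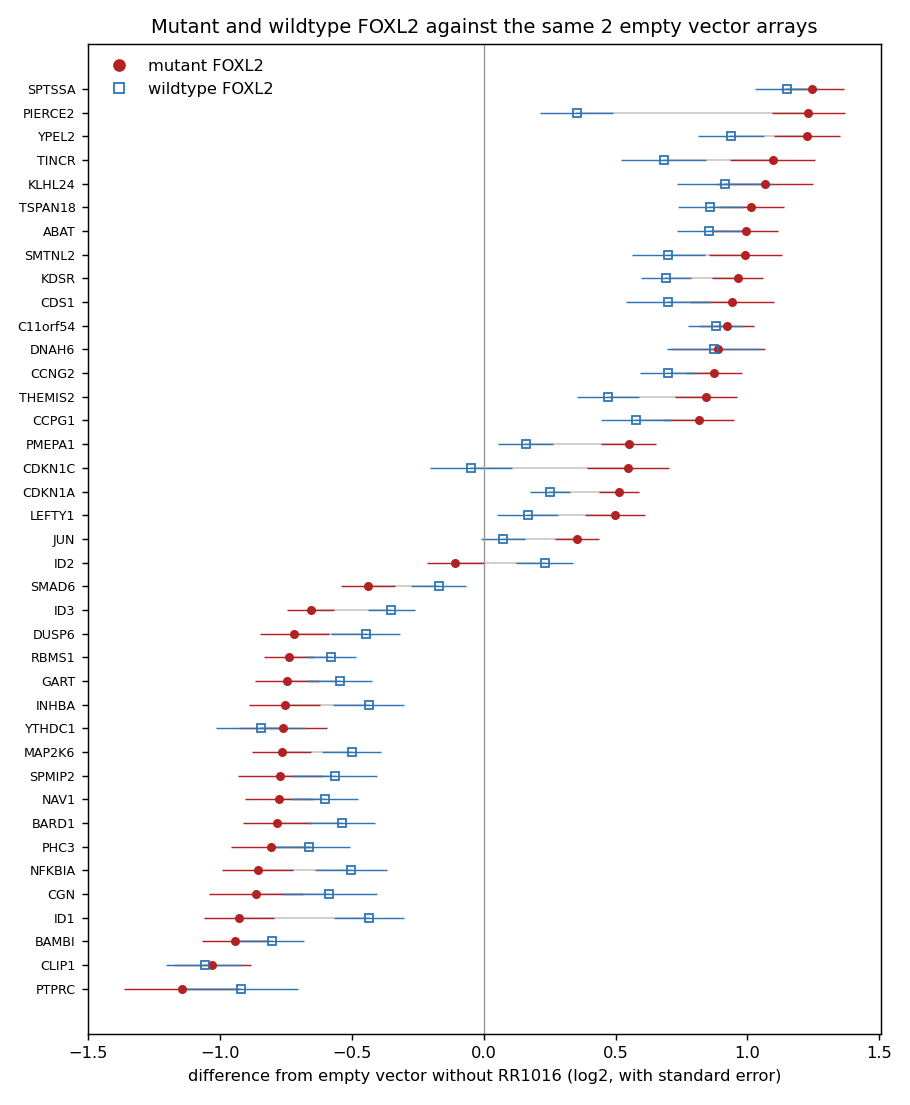
Log2 difference from empty vector (x axis, with standard errors) for mutant (circles) and wildtype FOXL2 (open squares) in the fit without RR1016, for the 30 largest changes and 9 further genes. Both sets of points use RR1021 and RR1023 as controls; the pairs lie far apart for PIERCE2 and CDKN1C and nearly coincide for DNAH6 and CLIP1.

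In KGN, an adult granulosa cell tumour line that carries the mutation, siRNA against FOXL2 was measured on arrays that share no sample with this comparison. Of the 128 genes that rose without overlap in COV434, 65 had a knockdown difference of the opposite sign (50.8%), while 46.7% of all genes were lower after knockdown. Of the 211 that fell, 123 were of the opposite sign (58.3%), while 53.3% of all genes were higher. The knockdown differences were 0.09 for BAMBI, 0.10 for ID1, −0.06 for ID3, 0.28 for INHBA, −0.07 for CDKN1A, −0.15 for SPTSSA and −0.00 for PIERCE2, and none of these passed in the fit of the 6 KGN arrays.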

How the data were processed

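Each array measured total RNA (105 ng, amplified and biotin labelled) from 1 transfection. Per the labels, the authors made the deposited values with RMA, a method that subtracts background, normalises the arrays together and gives 1 log2 value per probe set; the version is not given in the sources used here. RR1016 was part of that normalisation, so leaving it out afterwards does not remove its effect on the other arrays. The table had 0 columns beyond the 15 arrays.

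Of 54675 probe sets, 62 array controls were left out. Symbols came from the GEO platform annotation, updated through RefSeq gene IDs: 41091 probe sets have 1 symbol, 1801 several and 11721 none. Arrays have no depth, so signal was set against a background level, the 95th percentile of the mean over 42 probe sets of genes that the cells should not express (5.12; 39.6% of probe sets lay above it).

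Mutant minus empty vector was fitted with limma 3.58.1 (lmFit and eBayes, R 4.3.3) on 9 COV434 arrays and again on 8 without RR1016, with Benjamini-Hochberg adjustment over all 54613 probe sets, two-sided. The wildtype arrays share in the estimate of spread. An exact permutation test of 3 against 3 arrays cannot go below p = 0.1, the value of every gene without overlap. Lists use the brightest probe set of a gene over the 9 arrays. The scripts were tested on simulated data. Promoter sequences are from RefSeq (GRCh38.p14), and all 4 genes shown were matched. Named genes are the 15 per direction with the largest difference that passed without RR1016, had 1 symbol, were above background in the higher group and did not overlap all 3 controls, the genes the study names for mutant FOXL2, and for each of 41 lists the members that passed, or the 2 with the smallest p. Other list members given as examples, such as SMAD9, TGIF1, MKI67 and PLK1, and further probe sets of named genes were chosen after their values were seen. The comparison, the lists and the rule were chosen with earlier results of these data known. Alternatives were a fit without wildtype arrays, a filter at background, array weights, a trended robust prior, median centring, repeated quantile normalisation, the mean of a gene's probe sets, RNA quality as a covariate and leaving out single arrays.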

Additional observations from a re-analysis of the deposited data

How the results depend on the processing

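No probe set passed an adjusted p of 0.05 (limma) with all 9 arrays. The same held under the alternatives counted for them, other than leaving out single arrays. The fit with RNA quality as a covariate was a further exception and is given below. With single arrays left out, the counts ranged from 0 to 822 higher and 0 to 811 lower. The upper ends were those of the fit without RR1016. In that fit, the 822 higher and 811 lower probe sets became 0 and 0 with only empty vector and mutant arrays and with array quality weights, and 1272 and 1744 with a trended robust prior. Median centring gave 629 and 1352, a repeated quantile normalisation 953 and 538, and a filter at background 1153 and 2012, so the split between directions depends on the scaling. Leaving out a further array gave 0 to 4180 higher and 0 to 5185 lower: 0 without any mutant array, 1045 and 1279 without RR1021, and 4180 and 5185 without RR1023, where the lone control is assumed to vary like the other groups. At an unadjusted p under 0.01 the 2363 higher and 2844 lower became 1422 and 1587 with only both groups' arrays, 946 and 1016 with weights, 1324 higher with the filter, and 1477 to 4462 and 1602 to 5537 with single arrays left out. The causes were not tested. All 70 named probe sets that passed lost the call with all 9 arrays, with weights, with only both groups' arrays and without any mutant array. Without RR1021 20 of them lost it and without RR1023 4. With the mean of a gene's probe sets 22 called genes kept the call, 28 lost it and 2 turned. A fit of all 9 arrays with the 3′ to 5′ ratio as a covariate kept 68, but RR1016 alone has an extreme ratio, so this nearly repeats leaving it out and is no separate support. Directions turned with all 9 arrays for PMVK (0.029), SREBF1 (0.036), ATF3 (0.26), NDUFV1 (0.17), SOX9 (−0.030), BMPR1B (−0.029) and CYP19A1 (−0.016). They turned with the mean of a gene's probe sets for SOX4 (−0.015), ID2 (0.083), ATF3 (0.35), SOX9 (−0.019), CDK6 (0.038), BMPR1B (−0.46), CYP19A1 (−0.067), SCARA5 (−0.0092), RBBP4 (−0.055), CLDN11 (−0.033) and THBS1 (−0.16). Quantile normalisation turned ATF3 (0.088) and median centring SOX9 (−0.0081). With single arrays left out, the difference ranged from −0.99 to 0.090 for EMCN, from −0.12 to 0.11 for ATF3, from −0.31 to 0.39 for SOX9 and from −0.033 to 0.30 for the brightest SMAD3 probe set. No paired analysis was possible because the labels give no replicate numbers. Signal over background limits the called probe sets whose higher group was at or under it, 332 higher and 273 lower.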

Other observations

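Genes of sphingolipid synthesis and turnover were listed after the rises of SPTSSA and KDSR had been seen, so their values carry no test of the pathway. Of 26 genes listed, 23 were measured, of which 2 passed as higher (SPTSSA and KDSR) and 2 as lower (SPTSSB and SGPP2). The median difference of the list was −0.09 without RR1016 and 0.07 with all 9 arrays, beside −0.01 over all genes. SGPP2, a phosphatase of sphingosine 1-phosphate, read 6.62, 6.59 and 6.39 with empty vector on RR1016, RR1021 and RR1023, and 5.92, 5.73 and 5.90 on the mutant arrays RR1017, RR1019 and RR1024. The groups did not overlap, and it fell by 0.64 (standard error 0.10, adjusted p = 0.0282 by limma; −0.69 with all controls). SPTSSB, a relative of SPTSSA, was below background on all arrays.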
